A study of Rattus norvegicus with 43 samples.

Results

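Colonic mucosa of 4 rats fed fish oil was compared with that of 5 rats fed corn oil, all taken at 10 wk. These 9 rats, with 16 arrays (8 per diet), were taken by the diet, time and animal number in the sample labels out of 29 rats and 43 arrays in the whole series. Every rat was a Sprague Dawley male, described in the labels as weanling, and had received the colon carcinogen azoxymethane at 15 mg/kg, so that the carcinogen is shared by both groups. Each label places the tissue at 10 wk after injection, and the protocol in the labels adds a second injection for these rats with 9 wk between it and the end. The other groups were 5 olive oil rats at 10 wk and 5 rats per diet at 12 h after injection, and no untreated rats were analysed here. RNA was hybridised to 1-colour CodeLink arrays carrying 8452 probes. The mucosa was not sorted into cell types, so fewer cells of a type and less RNA per cell cannot be told apart.

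Fish oil supplies long-chain n-3 polyunsaturated fatty acids, and corn oil supplies mainly linoleic acid, an n-6 fatty acid. In the colon such fatty acids enter membranes, serve as precursors of eicosanoids, are burned in mitochondria and bind nuclear receptors of the PPAR family, whose targets include genes of fatty acid transport and oxidation. Azoxymethane, once activated in the body, methylates DNA and causes colon tumours in rodents. By its title the series set out to classify diet-modified expression at an early and a late stage of this process.

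Markers of colonic epithelium were present in both groups. Vil1, which encodes the microvillus protein villin, averaged a log2 intensity of 13.30 in fish oil rats and 13.31 in corn oil rats. The claudin gene Cldn7 averaged 13.86 and 13.86, and the goblet cell lectin gene Zg16 averaged 14.78 in fish oil rats and 14.71 in corn oil rats. Of 6 tested epithelial markers, 4 lay below 0 for fish oil minus corn oil and 2 above, with Hnf4a at -0.98 and Cldn3 at -0.33. Their median deviation from all rats of the series was 0.20, 0.01, -0.45 and -0.21 in fish oil rats 232, 233, 234 and 236. In corn oil rats 131, 132, 134, 135 and 136 it was 0.09, -0.01, 0.19, 0.11 and 0.10. Median signal above background was 256 to 537 per array in fish oil rats and 269 to 685 in corn oil rats, and 91.6% to 99.0% of spots on fish oil arrays and 92.5% to 99.6% on corn oil arrays reached the scanner's noise level.

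Fish oil rat 236 and corn oil rat 136 had 4 arrays each, and arrays 2 to 4 of both had a high background. Array 4 of rat 236 lay nearer to the high-background arrays of corn oil rat 136 than to the arrays of its own rat. It was the 1 fish oil array in the small ring scan class, to which arrays 1, 2 and 4 of rat 136 also belonged. Scan classes were set by the areas read for spot and background. The SD over probes of the log2 difference of this array was 0.274 to 0.285 to the high-background arrays of corn oil rat 136, but 0.42 to 0.545 to the other arrays of its own rat. Arrays 2 and 3 of rat 236 differed from each other by an SD of 0.0656, and the 2 arrays of fish oil rat 234 by 0.166. The high-background arrays of rat 136 differed from each other by 0.0844 to 0.125, less than any of them did from array 4 of rat 236. Whether the label of that array is right was not tested. Array 1 of rat 136 differed from its own rat's other arrays by 0.482 to 0.524, more than from array 1 of corn oil rat 132 (0.333). Results are given below with all arrays, averaged to 1 value per rat, and with these arrays left out where that ends a call or moves a count by over 1.5 times.

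Of 6378 probes tested, 4 differed between fish oil and corn oil at an adjusted p under 0.05 (limma, Benjamini-Hochberg over all tested probes), and all 4 fell. That is 0.0627% of the probes. They stand for Abi1, an adaptor of the WAVE complex that drives actin assembly, Arfip1, which binds small GTPases of the Golgi, Top2b, a DNA topoisomerase, and Ctsc, the lysosomal peptidase cathepsin C. Before adjustment, 685 probes (10.7%) had a p under 0.05, of which 296 (4.64%) were higher and 389 (6.1%) lower in fish oil.

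Abi1, on chromosome 17, had log2 intensities of 9.61, 9.78, 8.70 and 8.40 in fish oil rats 232, 233, 234 and 236, against 10.09, 10.39, 10.04, 10.09 and 9.99 in corn oil rats 131, 132, 134, 135 and 136. All 4 fish oil rats lay below all 5 corn oil rats, and rats 234 and 236 lay far below the other two fish oil rats. On the 4 arrays of rat 236 Abi1 stood at 8.45, 7.85, 7.89 and, on array 4, 9.41. Abi1 fell by 1.0 on the log2 scale (SE 0.20, 2.0-fold, limma adjusted p = 0.0417), to 9.12 ± 0.68 (SD, n = 4) in fish oil rats, against 10.12 ± 0.16 (SD, n = 5) in corn oil rats. The SE rests on a spread pooled over all groups of the series. The SD of Abi1 was far larger in fish oil rats than in corn oil rats or olive oil rats (0.09). The SE may therefore understate the uncertainty of this difference.

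Arfip1, on chromosome 2, stood at 9.47, 9.45, 8.94 and 8.70 in the fish oil rats, in the same order, against 9.70, 10.17, 9.80, 9.91 and 9.95 in the corn oil rats. It fell by 0.77 (SE 0.14, 1.70-fold, limma adjusted p = 0.0364), with 7 of 8 fish oil arrays above noise. The groups did not overlap, and rats 234 and 236 were again the lowest.

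The Top2b and Ctsc probes are not the brightest of their genes, and both are named because their values were among the 4. The Top2b probe, on chromosome 15, gave 7.39, 7.55, 6.91 and 6.92 in fish oil rats, against 7.61, 8.09, 8.02 and 8.05 in corn oil rats 131, 132, 135 and 136, with the spot missing in rat 134. It fell by 0.75 (SE 0.13, limma adjusted p = 0.0401) in a fit that left that rat out for this probe, while a brighter Top2b probe stood at -0.08 (adjusted p = 0.868), so the 2 probes of this gene disagree. The Ctsc probe, on chromosome 1, gave 9.55, 9.80, 9.57 and 9.08 in fish oil rats, against 9.93, 10.41, 10.17, 10.09 and 10.24 in corn oil rats, and fell by 0.67 (SE 0.13, limma adjusted p = 0.0417). The brighter Ctsc probe stood at -0.49 (adjusted p = 0.299), again with all fish oil rats below all corn oil rats.

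**Figure D1:**
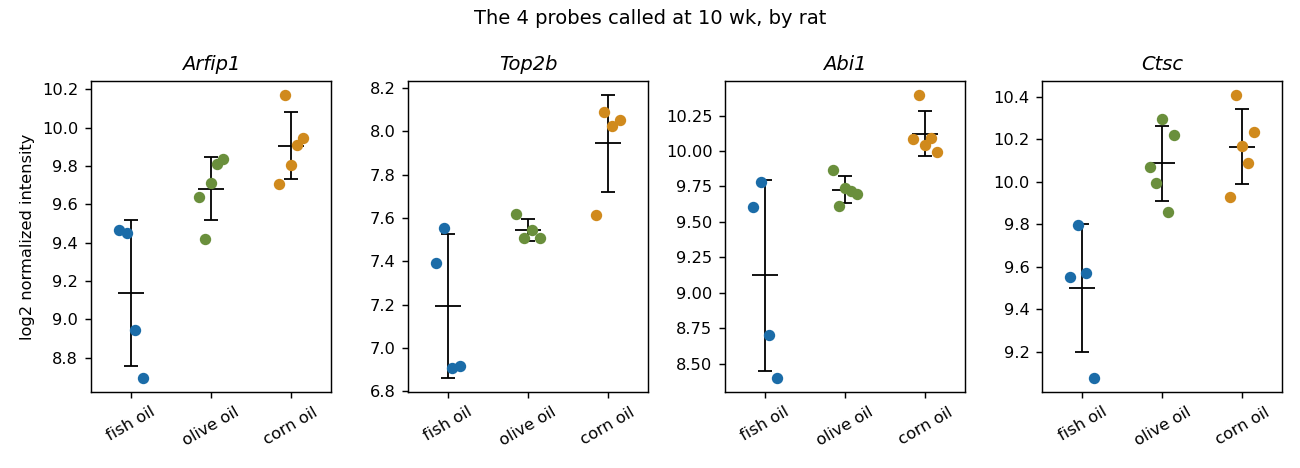
The log2 normalized intensity of the 4 called probes is plotted for each rat at 10 wk (points), with the mean and SD of each diet (bars), fish oil on the left, olive oil in the middle and corn oil on the right. All fish oil rats lie below all corn oil rats in each panel, 2 of the 4 fish oil rats lie lowest for Abi1, Arfip1 and Top2b, and olive oil means of 9.73, 9.68, 7.54 and 10.09 for Abi1, Arfip1, Top2b and Ctsc lie between those of the other diets.

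The 4 calls depended on which rats and arrays entered. With each rat left out in turn the count ran from 0 to 63: it was 63 without fish oil rat 233, 34 without fish oil rat 232, 27 without corn oil rat 131, 2 without corn oil rat 134, and 0 without fish oil rat 234 or 236 or corn oil rat 132, 135 or 136. Leaving out array 4 of rat 236 gave 0 calls, with larger differences (Abi1 at -1.08 and Arfip1 at -0.85, limma adjusted p = 0.0551 each), and leaving out all 6 high-background arrays gave 40 calls, 28 lower and 12 higher, that included all 4. Within the large ring scan class, which holds arrays of 4 fish oil and 4 corn oil rats, no probe passed, and Abi1 stood at -1.07, Arfip1 at -0.88, Top2b at -0.82 and Ctsc at -0.73. With scan class as a term no probe passed either, and the same 4 probes stood at -0.96, -0.77, -0.69 and -0.67. When the fit held only the rats of the groups compared, the differences were unchanged but no probe passed. The limma adjusted p was then 0.527 for Abi1 and Top2b and 0.522 for Arfip1 and Ctsc. The calls thus also depended on the spread taken from the other groups.

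**Figure D2:**
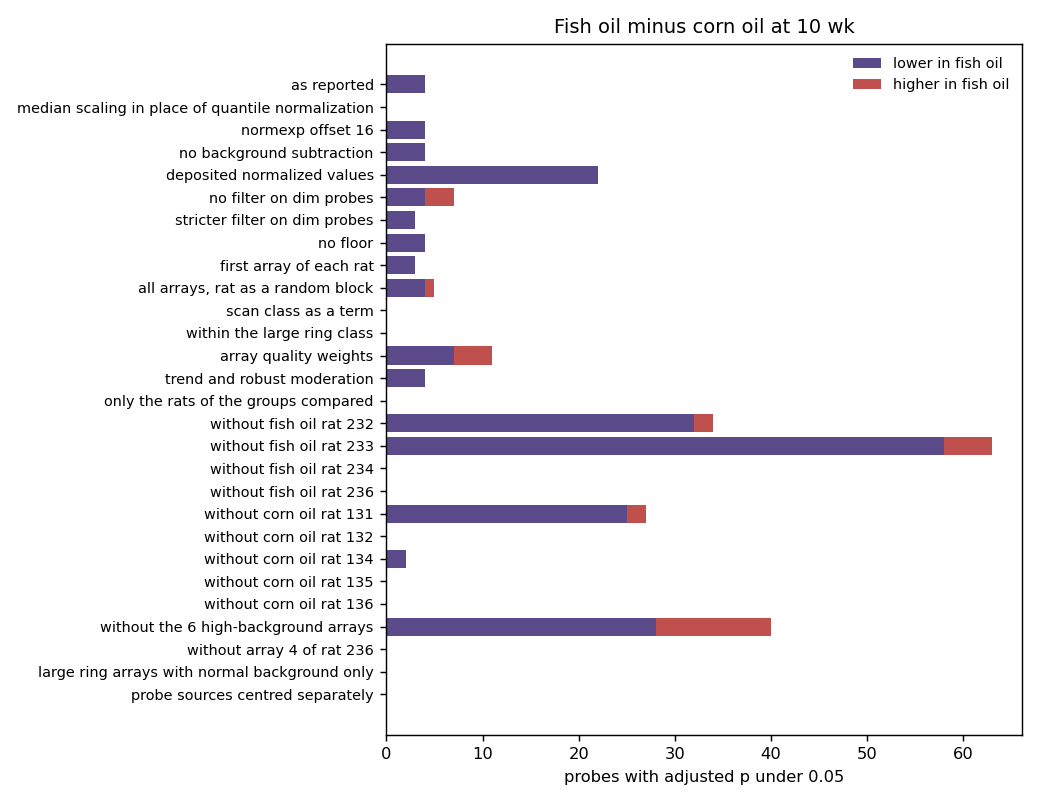
The number of probes with adjusted p under 0.05 for fish oil minus corn oil at 10 wk (bar length) is plotted for the reported analysis (top) and each alternative, split into probes lower and higher in fish oil. The count is 4 as reported, 63 without fish oil rat 233, 40 without the 6 high-background arrays, and 0 in 12 of the 27 alternatives, among them 5 of the 9 that leave out a rat.

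The downward differences with the next smallest p did not pass. Hspd1, the mitochondrial chaperonin, gave 10.89, 11.19, 10.52 and 10.23 in fish oil rats, against 11.59, 11.69, 11.54, 11.42 and 11.51 in corn oil rats (log2 difference -0.84, SE 0.18, adjusted p = 0.0689). Efnb1, which encodes the Eph receptor ligand ephrin-B1, gave 8.52, 7.29, 6.86 and 6.97 in fish oil rats, against 9.30, 9.36, 9.01, 8.70 and 8.75 in corn oil rats (-1.62, SE 0.36, adjusted p = 0.0696), with 6 of 8 fish oil arrays above noise. For both genes all fish oil rats lay below all corn oil rats, and Efnb1 had the largest downward difference of all tested probes. Txnip, which encodes an inhibitor of thioredoxin, gave 14.51, 12.92, 12.78 and 14.14 in fish oil rats, against 14.48, 14.85, 14.54, 14.93 and 14.42 in corn oil rats (-1.06, SE 0.23, adjusted p = 0.0696), and here rats 233 and 234 were the low ones.

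The other genes taken by smallest p downward were App, the amyloid precursor (-0.87), Ssbp3, a transcriptional cofactor (-0.79), Klf5, a transcription factor of proliferating crypt cells (-0.79), Pdia4 (-0.72), Add3, a component of the membrane skeleton (-0.70), Rab11b, a GTPase of recycling endosomes (-0.66), and Xab2, a splicing and repair factor (-0.46). Their adjusted p-values were 0.0689 to 0.0699. All fish oil rats lay below all corn oil rats for Ssbp3, Klf5, Pdia4 and Rab11b, and the groups overlapped for App, Add3 and Xab2. Over all probes 78 had every fish oil rat below every corn oil rat (1.22%) and 91 had every fish oil rat above (1.43%).

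Upward, no gene passed. Fabp4, a fatty acid carrier of adipocytes and macrophages, gave 8.83, 7.15, 8.32 and 8.43 in fish oil rats, against 7.59, 6.85, 7.09, 6.74 and 7.16 in corn oil rats (log2 difference 1.10, SE 0.27, 2.14-fold, adjusted p = 0.0783). Fish oil rats 232, 234 and 236 lay above all corn oil rats, and rat 233 lay among the corn oil rats. Mtnr1b, a melatonin receptor gene, gave 8.001, 8.12, 8.23 and 7.99 in fish oil rats, against 7.69, 7.48, 7.41, 7.82 and 7.61 in corn oil rats (0.48, SE 0.12, adjusted p = 0.0699), with no overlap. Dcun1d4, whose protein assists cullin neddylation, averaged 8.53 ± 0.09 in fish oil rats and 8.10 ± 0.10 in corn oil rats (SD, n = 4 and 5, 0.44, adjusted p = 0.0699), also with no overlap.

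The remaining genes taken by smallest p upward were Tsc22d2 (1.04), Cpt1b (0.61), Aplf, a DNA break repair factor (0.60), Epm2aip1 (0.52), Trak1, which links mitochondria to motor proteins (0.46), Rabl3 (0.42), Zfp455l1 (0.41), Tspan31 (0.41) and Zfp598, a ubiquitin ligase that acts on collided ribosomes (0.32), with adjusted p-values of 0.0989 to 0.194. All fish oil rats lay above all corn oil rats for Cpt1b, Aplf, Epm2aip1, Trak1 and Tspan31. Without the 6 high-background arrays 8 of the 12 genes taken upward passed, namely Dcun1d4, Mtnr1b, Fabp4, Cpt1b, Rabl3, Epm2aip1, Trak1 and Zfp598 (limma adjusted p = 0.043 to 0.0468), as did App, Hspd1, Ssbp3, Add3, Rab11b, Txnip, Klf5, Efnb1, Pdia4 and Xab2 downward (adjusted p = 0.036 to 0.043).

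The fish oil rats did not share the downward differences evenly. In 184 of the 251 mRNA-derived probes with a lower level at an unadjusted p under 0.05, rats 234 and 236 were the 2 lowest of the 4 fish oil rats (73.3%), against 37.9% of all mRNA-derived probes. Among probes derived from expressed sequence tags (ESTs) this held for 51.4% of the 138 that were lower in the same way, against 24.1% of all of them. The median SD between rats for those 251 probes, which were picked by these same values, was 0.318 in fish oil rats and 0.193 in corn oil rats. Over all mRNA-derived probes it was 0.225 and 0.228. Hnf4a, a transcription factor of the intestinal epithelium, was one example, with 9.56, 9.81, 8.04 and 7.89 in fish oil rats, against 9.70, 10.05, 9.79, 9.69 and 9.81 in corn oil rats (-0.98, SE 0.29, adjusted p = 0.163). Rats 232 and 233 lay within the corn oil range or close to it, and rats 234 and 236 lay far below. The transcription factor gene Cebpa (9.12, 9.39, 8.20 and 7.83 in fish oil rats, against 8.99 to 9.64 in corn oil rats) had the same form.

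Differences also followed the kind of record that a probe was designed on, read from the accession in the probe's name. The 1780 probes designed on mRNA records had a median difference of -0.07, with 251 lower and 34 higher in fish oil at an unadjusted p under 0.05, and held all 4 calls. The 4598 probes designed on ESTs had a median of 0.03, with 138 lower and 262 higher, and no call. The shift was not particular to fish oil rats. Olive oil minus corn oil had medians of -0.05 for mRNA probes and 0.02 for EST probes, and fish oil minus olive oil -0.04 and 0.02. Per rat, the median deviation of mRNA probes minus that of EST probes was -0.06, -0.05, -0.19 and -0.14 in fish oil rats 232, 233, 234 and 236, against -0.07, 0.02, 0.06, -0.03 and 0.01 in corn oil rats. In olive oil rats 332, 333, 334, 335 and 336 it was -0.04, 0.01, -0.08, -0.15 and -0.08. The means were -0.11 ± 0.06 (SD, n = 4) in fish oil rats and 0.000078 ± 0.051 (SD, n = 5) in corn oil rats. They differed by an exact permutation test over 126 splits (two-sided p = 0.0317, where 0.0159 is the smallest possible). This contrast was not among those set out beforehand, and 1 corn oil rat overlapped the fish oil range. With the 2 kinds of probe centred separately on each array, no probe passed, Abi1, Arfip1 and Top2b each stood at adjusted p = 0.0704 and Ctsc at 0.112, and their differences were -0.88, -0.65, -0.65 and -0.54. The part of this shift in the differences of single genes was not tested beyond that.

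**Figure D3:**
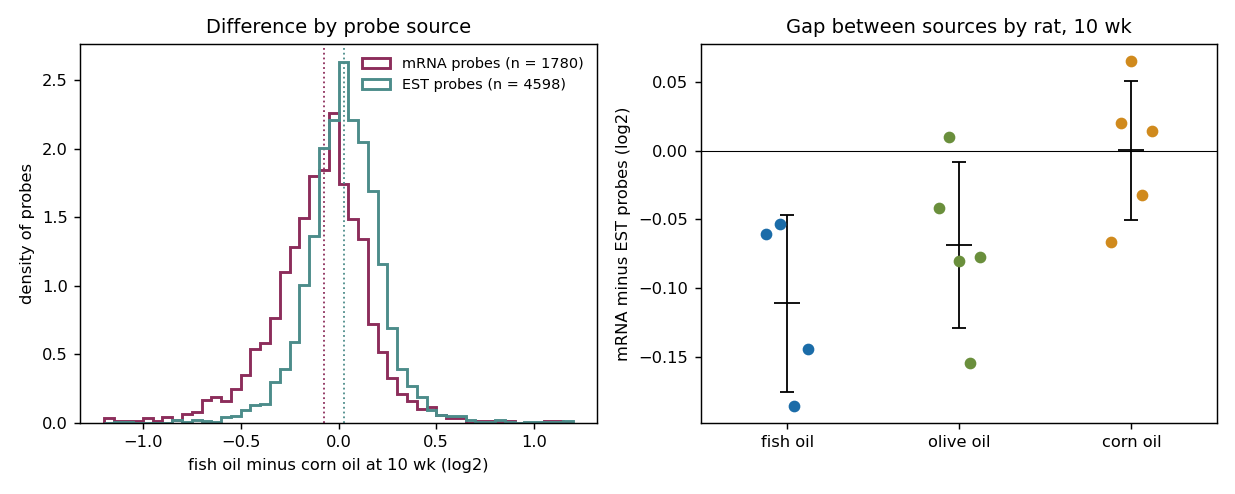
Left, the density of log2 differences (fish oil minus corn oil at 10 wk) is drawn for probes designed on mRNA records and on ESTs, with dotted lines at the medians of -0.07 and 0.03 and values beyond the axis in the outermost bins. Right, the gap between the 2 kinds of probe is plotted for each rat (points) with mean and SD (bars) for fish oil, olive oil and corn oil, and is lowest in fish oil rat 234 (-0.19), olive oil rat 335 (-0.15) and fish oil rat 236 (-0.14).

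Genes of the unfolded protein response and of protein folding in the endoplasmic reticulum lay lower in fish oil rats, without any call. Of 31 genes listed, 20 were on the arrays and 19 were tested, and 18 of these 19 had a difference below 0 (94.7%), against 51.9% of all 4429 named genes and 64.8% of the 1453 named genes with mRNA probes. The list median was -0.24, against -0.01 over all named genes and -0.07 over those with mRNA probes, and 13 of the 19 members had mRNA probes. At an unadjusted p under 0.05, 5 members were lower (26.3%) and 0 higher, against 6.14% and 3.52% of all named genes and 12.5% and 1.86% of those with mRNA probes, to which all 5 belong. Per rat, the list's median deviation from all rats of the series was -0.16, -0.06, -0.33 and -0.30 in fish oil rats, against 0.01, 0.26, 0.17, -0.04 and 0.10 in corn oil rats. Every fish oil rat lay below every corn oil rat, and rats 234 and 236 lay lowest here too. For single genes this held for 3 of the 19 members, against 1.38% of all named genes and 2.68% of those with mRNA probes. The list was chosen with earlier results of these data known, so these counts are described and not tested. The median ran from -0.34 to -0.16 over the alternatives, and was -0.16 with the 2 kinds of probe centred separately.

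The 5 genes with the smallest p encode a disulfide isomerase of the endoplasmic reticulum (Pdia4), the isomerase that is also the beta subunit of prolyl hydroxylase (P4hb), a glycoprotein-specific isomerase (Pdia3), the lectin chaperone calnexin (Canx) and Herpud1, a component of the pathway that degrades misfolded proteins. Pdia4 gave 9.89, 10.06, 9.93 and 9.86 in fish oil rats, against 10.38, 11.05, 10.31, 10.64 and 10.89 in corn oil rats (-0.72, SE 0.16, 1.65-fold, adjusted p = 0.0697). P4hb gave 12.34, 12.36, 12.04 and 11.74 in fish oil rats, against 12.43, 12.87, 12.58, 12.66 and 12.73 in corn oil rats (-0.53, SE 0.13, adjusted p = 0.0699). Pdia3 gave 13.08, 13.14, 13.27 and 13.12 in fish oil rats, against 13.78, 13.81, 13.45, 13.64 and 13.65 in corn oil rats (-0.51, SE 0.13, adjusted p = 0.0989).

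These 3 genes had no overlap between groups, and for Pdia4 and Pdia3 the 4 fish oil rats lay close together, so that rats 234 and 236 did not stand apart. Another Pdia3 probe, designed on an EST, stood at -0.11 (adjusted p = 0.831). Canx gave 11.23, 11.44, 10.92 and 10.66 in fish oil rats, against 11.51, 11.88, 11.72, 11.42 and 11.51 in corn oil rats (-0.55, SE 0.14, adjusted p = 0.0989). Canx overlapped through fish oil rat 233. Herpud1 stood at -0.48 (adjusted p = 0.353). Hspa5, which encodes the chaperone BiP and is a classic marker of the response, averaged 13.00 ± 0.11 (SD, n = 4) in fish oil rats and 13.24 ± 0.32 (SD, n = 5) in corn oil rats, a difference of -0.24 (limma adjusted p = 0.757). Pdia5, the 1 member above 0, stood at 0.48 (unadjusted p = 0.181).

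**Figure D4:**
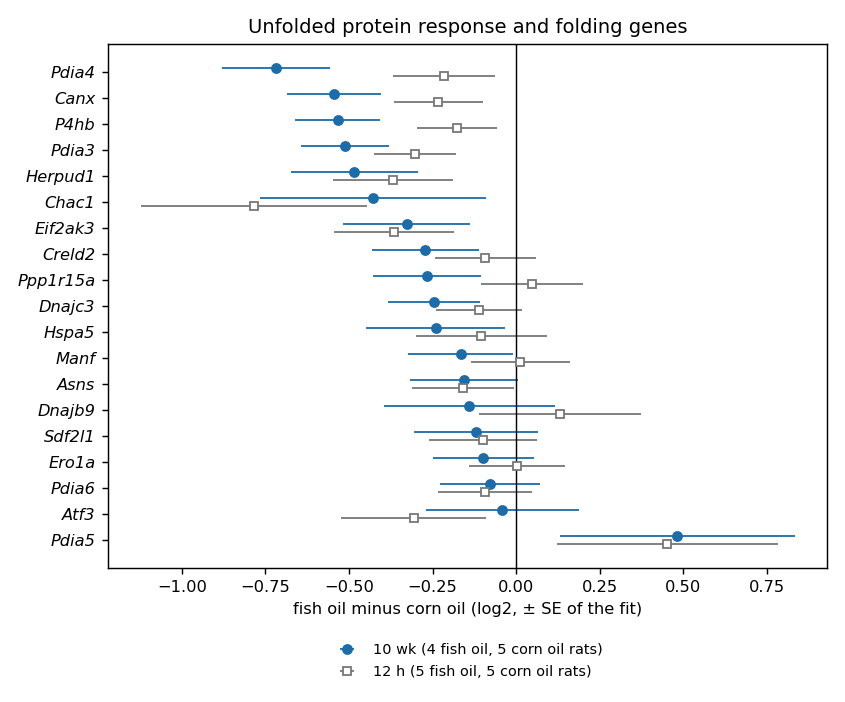
The log2 difference, fish oil minus corn oil, is plotted with its standard error from the fit for the 19 tested genes of the unfolded protein response and folding list, at 10 wk (filled circles) and in other rats at 12 h (open squares), with Sdf2l1 measured in 3 of the 4 fish oil rats at 10 wk. At 10 wk all members except Pdia5 lie below 0, from Pdia4 at -0.72 to Atf3 at -0.04, and the medians of the list are -0.24 at 10 wk and -0.11 at 12 h.

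Many genes of this response carry an endoplasmic reticulum stress response element in the promoter, which the transcription factor ATF6 binds together with NF-Y. Promoter sequences from RefSeq (build GRCr8) matched 14 of the 19 tested members. The element, spelled CCAAT, then 9 bases of any kind, then CCACG, and searched on both strands of the 250 bases before the start, was in 4 of these 14 (Canx, Creld2, Dnajc3 and Hspa5) and in 22 of all 33469 promoters (0.0657%). Its first letters, CCAAT, which the search for the element overlaps, were in 11 of the 14 and in 34% of all promoters. The list was made of genes of this response, so both shares follow in part from its choice and do not bear on the diets. The promoters counted as all were not limited to tested genes. The stretches around the element are shown for its 4 carriers, which stood at -0.55, -0.27, -0.24 and -0.24, with the element in capitals. They are chr10:35158029-35158107 on the minus strand for Canx, chr7:121789199-121789297 on the plus strand for Creld2, where the match reads on the opposite strand, chr15:102432494-102432592 on the plus strand for Dnajc3 and chr3:38452933-38453015 on the plus strand for Hspa5.
Canx: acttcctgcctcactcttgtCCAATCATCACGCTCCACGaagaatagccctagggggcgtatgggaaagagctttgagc
Creld2: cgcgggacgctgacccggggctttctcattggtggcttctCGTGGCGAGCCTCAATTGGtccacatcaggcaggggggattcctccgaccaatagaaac
Dnajc3: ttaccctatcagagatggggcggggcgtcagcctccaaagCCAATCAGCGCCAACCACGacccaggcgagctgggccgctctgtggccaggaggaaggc
Hspa5: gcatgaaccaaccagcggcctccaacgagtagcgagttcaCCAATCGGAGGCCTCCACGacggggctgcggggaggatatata

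Pdia4 and P4hb, the members with the smallest p, had no match to the whole element in that window, and the 200 bases before their starts are shown with each CCAAT, on either strand, in capitals (chr4:78153192-78153391 and chr10:106346912-106347111, both on the minus strand). Each holds 2.
Pdia4: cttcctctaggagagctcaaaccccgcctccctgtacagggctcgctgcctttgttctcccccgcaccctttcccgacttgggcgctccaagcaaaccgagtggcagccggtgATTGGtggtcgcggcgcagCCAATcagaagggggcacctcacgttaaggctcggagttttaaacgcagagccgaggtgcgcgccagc
P4hb: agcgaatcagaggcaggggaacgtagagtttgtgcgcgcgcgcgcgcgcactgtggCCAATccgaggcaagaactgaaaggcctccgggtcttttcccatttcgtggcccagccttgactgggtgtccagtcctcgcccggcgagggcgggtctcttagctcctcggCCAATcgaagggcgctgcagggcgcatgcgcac

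Genes of fatty acid use lay on both sides of 0, without any call. Of 28 tested genes of fatty acid oxidation and PPAR targets, 15 lay above 0 and 13 below, 2 were higher (7.14%) and 2 lower (7.14%) at an unadjusted p under 0.05, and the median was 0.05. Of all named genes 3.52% were higher and 6.14% lower, and of those with mRNA probes, as 25 of the 28 have, 1.86% were higher and 12.5% lower. Cpt1b, the muscle form of the enzyme that admits fatty acids to mitochondria, gave 7.90, 7.86, 7.79 and 7.99 in fish oil rats, against 7.38, 6.85, 7.16, 7.60 and 7.39 in corn oil rats (0.61, SE 0.16, 1.52-fold, adjusted p = 0.0989). Fabp1, which encodes the fatty acid carrier of liver and intestine, gave 14.02, 14.10, 13.91 and 14.27 in fish oil rats, against 13.38, 13.53, 13.59, 13.70 and 13.07 in corn oil rats (0.62, SE 0.30, adjusted p = 0.46). Both genes had every fish oil rat above every corn oil rat.

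Echs1, an enzyme of mitochondrial beta-oxidation, gave 10.56, 10.71, 10.64 and 10.67 in fish oil rats, against 10.94, 11.16, 10.80, 11.11 and 11.04 in corn oil rats (-0.37, SE 0.08, adjusted p = 0.0699). It lay opposite to Cpt1b and Fabp1, again with no overlap. Ucp2, which encodes a mitochondrial uncoupling protein, stood at -0.45 (adjusted p = 0.346), and a further Ucp2 probe at -0.04. Of 16 tested genes of lipogenesis and desaturation 11 lay above 0, with a median of 0.09. Acaca, which encodes acetyl-CoA carboxylase, averaged 10.37 ± 0.28 in fish oil rats and 9.91 ± 0.25 in corn oil rats (SD, n = 4 and 5, 0.47, adjusted p = 0.226), and Acsl5, which activates fatty acids, stood at -0.44 (adjusted p = 0.356). Among 17 tested genes of eicosanoid synthesis and signalling none had an unadjusted p under 0.05, and the cyclooxygenase gene Ptgs1 had the smallest (-0.31, unadjusted p = 0.0678).

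Fabp4 is also an adipocyte marker. Of 12 listed adipocyte markers 6 were on the arrays and 4 were tested, with 1 higher and 2 lower at an unadjusted p under 0.05 (3.52% and 6.14% of all named genes). Adipoq, which encodes the adipocyte hormone adiponectin, gave 8.35, 6.55, 8.07 and 7.77 in fish oil rats, against 6.95, 6.84, 6.86, 6.83 and 7.75 in corn oil rats (0.64, unadjusted p = 0.0608), so that its low fish oil rat, 233, was the one low for Fabp4. Cebpa and Pck1, which epithelium also expresses, stood at -0.63 and -0.33. The list's median per rat ran from -0.21 to 0.54 in fish oil rats and from -0.24 to 0.02 in corn oil rats. The part of adipocyte RNA in the difference of Fabp4 was not tested.

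Among markers of surface colonocytes, 2 of 8 tested were higher and 0 lower at an unadjusted p under 0.05 (3.52% and 6.14% of all named genes), with a list median of 0.01. Aqp8, an apical water channel, gave 12.92, 12.56, 11.96 and 12.05 in fish oil rats, against 11.59, 11.86, 12.19, 11.09 and 11.61 in corn oil rats (0.70, SE 0.28, adjusted p = 0.356). Ceacam1, an epithelial adhesion molecule, gave 11.78, 11.63, 11.37 and 11.80 in fish oil rats, against 10.71, 10.80, 11.12, 11.44 and 11.09 in corn oil rats (0.61, SE 0.19, adjusted p = 0.196). Both overlapped through 1 corn oil rat, 134 for Aqp8 and 135 for Ceacam1. Car2 and Dpp4, also surface markers, stood at 0.00 and 0.02. Pigr, which encodes the receptor that carries IgA across the epithelium, stood at -0.76 (adjusted p = 0.33). Among 6 tested markers of the colonic epithelium as a whole, 2 were lower at an unadjusted p under 0.05 (6.14% of all named genes, 12.5% of those with mRNA probes), Hnf4a and the claudin gene Cldn3 (-0.33), and in both rats 234 and 236 were the lowest.

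The remaining lists are read against the same shares, 6.14% lower and 3.52% higher at an unadjusted p under 0.05 among all named genes and 12.5% and 1.86% among those with mRNA probes. Proteasome genes had 3 of 28 lower (10.7%) and 0 higher (median -0.06), a share below that of named genes with mRNA probes, as 22 of the 28 have. The 3 were Psmd1 at -0.64, Psmb2 at -0.32 and Psmb7 at -0.23. Oxidative phosphorylation had 4 of 26 lower (15.4%, median 0.01, 15 with mRNA probes), 3 of them subunits of ATP synthase (Atp5pb at -0.28, Atp5f1b at -0.32 and Atp5mc2 at -0.22) and 1 of complex I (Ndufb2 at -0.32). Apoptosis regulators had 1 of 15 higher and 1 lower, the caspase gene Casp2 at 0.35 and the BCL2 family member Bak1 at -0.88, and cholesterol synthesis had 1 of 14 lower, Nsdhl at -0.33. Cell cycle genes had 3 of 16 lower (median -0.07), Tyms, Rb1 and Pcna, at -0.32, -0.36 and -0.35, and these do not act in 1 direction, since Rb1 restrains the cycle while Tyms and Pcna serve DNA synthesis. The 13 tested DNA repair genes, 17 ribosomal protein genes, 11 genes of the Wnt pathway and 13 of acute inflammation had no member with an unadjusted p under 0.05. No member of any list passed after adjustment.

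The same diets were also compared in other rats, taken at 12 h after injection, 5 per diet, with which the 10 wk groups share no animal. No probe passed at 12 h (528 at an unadjusted p under 0.05, 8.28%, with 4.22% higher and 4.06% lower, smallest limma adjusted p 0.126). None passed for the change between times in the fish oil minus corn oil difference (321 unadjusted, 5.03%, with 2.18% higher and 2.85% lower at 10 wk). Across 6378 probes, which are not independent, the differences at the 2 times had r = 0.213. Of the 685 probes with an unadjusted p under 0.05 at 10 wk, 77.2% had the same sign at 12 h, against 56.8% of the other probes. An unadjusted p under 0.05 at both times was found for 97 probes with the same sign and 6 with opposite signs.

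The shared sign held for both kinds of probe. Of the mRNA probes lower at 10 wk 88.4% were below 0 at 12 h, against 56% of all mRNA probes, and of the EST probes higher at 10 wk 71% were above 0 at 12 h, against 50.8% of all EST probes. The EST probes lower at 10 wk were below 0 at 12 h in 68.8%, against 49.2%. The 97 probes stand for 57 named genes at their brightest probe, 15 higher and 42 lower. Of the 15 higher genes 12 had EST probes, and of the 42 lower genes 34 had mRNA probes, so that direction went with the kind of probe here too.

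The 57 genes are described by the larger of their 2 p-values, a rule chosen after their values were seen. Fabp4 came first, at 1.10 at 10 wk and 1.31 (SE 0.25, unadjusted p = 1.98e-05) at 12 h. It was dim in corn oil rats, at most 7.59 at 10 wk and 6.75 on average at 12 h. Both lie below the level used to filter dim probes, and the fish oil means of 8.18 and 8.06 lie above it. Its entry among the tested probes is therefore not independent of its level in fish oil rats. Mtnr1b stood at 0.48 and 0.38, and Aqp8 at 0.70 and 1.04. Among the lower genes, Hs3st1, an enzyme of heparan sulfate synthesis, stood at -0.45 and -0.40, Akr1b1, which encodes aldose reductase, at -0.44 and -0.55, Nr5a2, a nuclear receptor of the intestinal epithelium, at -0.61 and -0.43, and Efnb1 at -1.62 and -0.89. For Hs3st1, Akr1b1 and Efnb1 all fish oil rats at 10 wk lay below all corn oil rats. Of the genes described earlier, Zfp598 (0.32 and 0.20) and Tspan31 (0.41 and 0.26) were also among the 57 upward. Downward these were Ctsc at its brighter probe (-0.49 and -0.42), Pdia3 (-0.51 and -0.30), Add3 (-0.70 and -0.35), App (-0.87 and -0.40), Arfip1 (-0.77 and -0.29), Pck1 (-0.33 and -0.38) and Hnf4a (-0.98 and -0.57). The dimmer Top2b probe stood at -0.75 and -0.41.

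**Figure D5:**
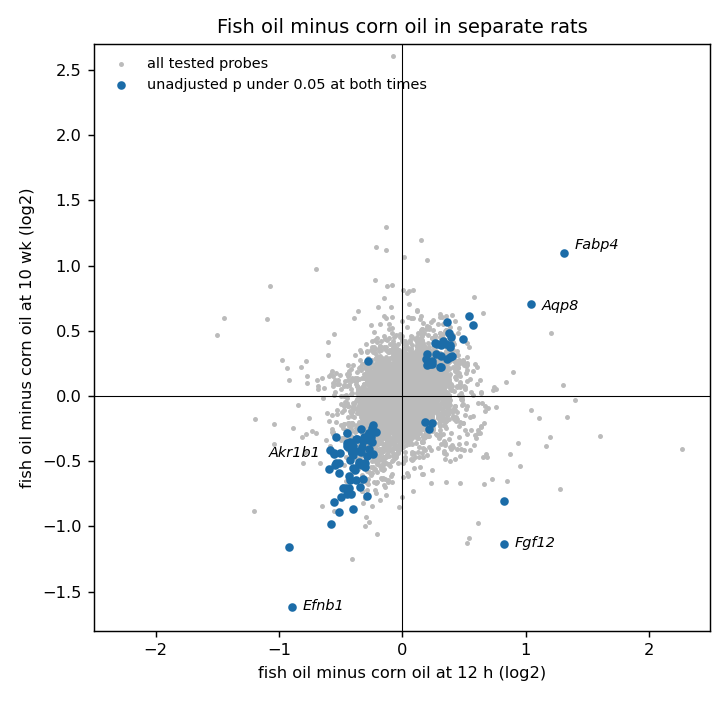
Each point is 1 of 6378 probes, with the log2 difference fish oil minus corn oil at 12 h on the horizontal axis and at 10 wk on the vertical axis, and probes with an unadjusted p under 0.05 at both times in blue. The 97 of these with the same sign lie to the lower left and upper right of the centre, among them Fabp4 (1.31 and 1.10) and Efnb1 (-0.89 and -1.62), and 6 lie to the upper left or lower right.

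The 6 probes with opposite signs included Fgf12, a fibroblast growth factor homologue (-1.13 at 10 wk and 0.83 at 12 h), the p53 target Perp (-0.25 and 0.21) and Shmt2, an enzyme of mitochondrial folate metabolism (-0.21 and 0.24). Gfpt2, an enzyme of hexosamine synthesis (-0.26 and 0.55), Shmt2 and Tlnrd1 (-0.18 and 0.38) had the smallest p for the difference between times, with adjusted p-values of 0.963. Cpt1b, by contrast with Fabp4, stood at 0.61 at 10 wk and 0.05 at 12 h, and the difference between times had an unadjusted p of 0.0138 (adjusted p = 0.964). The 12 h means of Cpt1b were 6.69 in fish oil rats and 6.64 in corn oil rats, below the log2 7.66 used as the filter. The 4 fish oil rats at 10 wk, all above it, were enough for this probe to be tested. Its contrast between times is therefore not independent of the filter.

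Against olive oil at 10 wk, which shares the fish oil rats with the comparison above, no probe passed (302 at an unadjusted p under 0.05, 4.74%, with 1.76% higher and 2.98% lower). None passed for olive oil against corn oil either (147, 2.3%, with 1.22% higher and 1.08% lower). Fish oil minus olive oil stood at -0.60 for Abi1, -0.54 for Arfip1, -0.35 for the Top2b probe and -0.59 for the Ctsc probe, at 0.96 for Fabp4, and at -0.59 for Pdia4. The medians of the folding list were -0.20 for fish oil minus olive oil and -0.06 for olive oil minus corn oil.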

How the data were processed

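Per the file headers, each array file holds spot mean and background median intensity. The authors' deposited background-subtracted and normalized intensity columns hold 1 constant per diet on 1559 fish oil and 1966 corn oil probes, and were used only as an alternative. The spot area, background area and signal strength columns, per the file headers, served to describe scan classes and noise. Missing spots (-9999) were left out. Tools used by the authors for quantification are not given in the sources used here.

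Intensity was background-corrected by normexp (offset 50), quantile normalized over all 43 arrays, floored at the 10th percentile (log2 6.46) and averaged per rat, in limma 3.58.1 (R 4.3.3). Probes above log2 7.66 (30th percentile) in at least 4 rats were tested (6378), for 4429 named genes. All 29 rats entered 1 fit, in which every adjusted p is limma's over all tested probes, with 0.05 as threshold, and the script was tested on simulated data. SE is the fit's standard error of a difference, and SD is the spread of levels between rats, which the labels number as separate animals. Arrays give no counts, and the number of rats limits the precision.

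A gene is represented by its brightest probe. Genes named are the 12 per direction with the smallest p (the largest changes first where adjusted p passed), and those of smallest p for the difference between times. From each list up to 4 members with an unadjusted p under 0.05 were named, or for pathway lists at least the member of smallest p. The members and lists were chosen with earlier results of these data known.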

Additional observations from a re-analysis of the deposited data

Results flagged for a closer look

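In 138 groups of rats (2 diets for each named probe), 4 held 1 rat far from the others by Dixon's test at 95%, where chance gives about 1 in 20. Zfp598 stood at 10.50 in fish oil rat 233, with the other fish oil rats at 10.77 to 10.80. Abi1 stood at 10.39 in corn oil rat 132, against 9.99 to 10.09 in the other corn oil rats, and without that rat no probe passed. Top2b (the called probe) stood at 7.61 in corn oil rat 131, against 8.02 to 8.09 in the others. Aplf stood at 7.43 in corn oil rat 132, against 8.20 to 8.51 in the others.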

How the results depend on the processing

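No paired analysis was possible because the numbers shared between titles mark repeat arrays of 1 rat, and each rat belongs to 1 diet. The 4 calls at 10 wk became 0 under median scaling, with scan class as a term, within the large ring class and with only the rats of the groups compared, 7 without a filter, 11 with array quality weights and 22 in the deposited normalized values, which hold 4396 probes. All 22 were lower, and 2 of them were among the 4. In the deposited values the array of corn oil rat 131 had a median of 2.02, against 1.04 to 1.06 on the other arrays. That array was not rescaled, and its part in the 22 was not tested. Added after seeing the data, the count was 40 without the 6 high-background arrays, 0 without array 4 of rat 236, 0 with large ring arrays of normal background only and 0 with the kinds of probe centred separately. Leaving out 1 rat gave 0 to 63. For fish oil minus olive oil the count of 0 became 1 without a filter, 1 with the first array of each rat, 11 with array quality weights, and 0 to 2 with 1 rat left out. For the difference between times it became 6 with the first array of each rat and stayed at 0 with any 1 rat left out. Named genes changed sign in 16 cases out of all alternatives. In 15 this was within the small ring class, which holds array 4 of fish oil rat 236 and 3 arrays of corn oil rat 136: Acsl5 0.22, Ptgs1 0.014, Ndufb2 0.30, Perp 0.10, Junb 0.073, Vcam1 0.43, Parp1 0.18, Hspd1 0.23, Canx 0.0016, Rb1 0.00064, Tsc22d2 -0.27, Shmt2 0.050, Atp5pb 0.25, Tyms 0.13 and Pcna 0.10. Another Perp probe stood at 0.23. The causes were not tested.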
